A study of Mus musculus with 8 samples.

Results

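These regions of mouse chromatin were called accessible in every library that carried the internal tandem duplication of Flt3 and in no library without it. They were chosen by the peak calls themselves. Peaks of 8 lists were merged on any overlap (1 bp or more), and a merged region on chromosomes 1 to 19 was kept when all 4 libraries with Flt3-ITD had a peak in it and none of the other 4 did. The rule found 975 regions, called Flt3-ITD-only regions here, among 109822 autosomal regions and 114533 regions on all chromosomes. That is 0.888% of the autosomal regions. Since the calls defined the set, this share is a description and was not tested. The reverse pattern, calls in all 4 libraries without Flt3-ITD and in none with it, was held by 1277 regions (1.16%).

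The libraries were made by ATAC-seq, in which the Tn5 transposase inserts adapters into DNA that is not covered by nucleosomes, from c-Kit+ cells of the bone marrow, among which the blood-forming stem cells and progenitors are found. All mice had received PIpC, an inducer of interferon that switches on the interferon-responsive Mx1 promoter, and marrow was taken 4 weeks later and used at 50000 cells per library. Each of the 4 genotypes had 2 libraries. The control was Smc3 fl/+ without Mx1-Cre. In Smc3 del/+ 1 copy of Smc3 was deleted, in Flt3-ITD the duplication was present, and the combined genotype reads Smc3 fl/del Flt3-ITD in the genotype label and Smc3het Flt3ITD in the title, so the state of its second Smc3 allele is not settled. The name Smc3-deleted Flt3-ITD is used for it. Per the titles, both genotypes with Flt3-ITD and Smc3 del/+ were Mx1-Cre positive, so the control was the single genotype without the recombinase. The description field gives the names of Flt3-ITD and Smc3 del/+ the other way round from the titles and genotype labels, which were followed. Under the exchanged reading 141 regions fulfilled the rule; the 975 cannot be among them, since that reading asks for peaks in libraries where the 975 have none. Whether both libraries of a genotype came from separate mice is not stated, so the spread between them may be technical.

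Flt3 is a receptor tyrosine kinase of early progenitors whose ligand promotes their growth and their entry into lymphoid and myeloid lineages. The tandem duplication lies in the juxtamembrane part of the receptor, makes the kinase active without ligand and drives STAT5, RAS-MAPK and PI3K signaling; it is a frequent lesion of acute myeloid leukemia. Smc3 is a core subunit of cohesin, which extrudes chromatin loops and holds sister chromatids together. Accessible regions mark promoters, enhancers and insulators. A gained peak shows that DNA at that site can be reached, not which gene it acts on. No gene, exon, intron or sequence was assigned to the regions, because no genome or annotation of the build of the peaks (mm9) was used here.

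The list lengths ran from 61953 to 80698 peaks, and read depth is unknown for every library. Smc3-deleted Flt3-ITD had the longest lists (80698 and 80316 peaks), while the Flt3-ITD lists (67152 and 64218) were close in length to those without the duplication (61953 to 74525). A missing call therefore means that no peak was listed, not that the chromatin was closed.

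The Flt3-ITD-only regions sat in a sparsely filled corner of the table of calls. Only 538 regions (0.490%) were called in all 4 libraries without Flt3-ITD and in 1 with it, the least common combination, whereas 35155 regions (32.0%) had a call in all 8. One call away from the rule on one side lay 2314 regions called in 3 of the 4 libraries with Flt3-ITD and in no other. The missing call belonged to Flt3-ITD replicate 2 in 1192 of them, to Flt3-ITD replicate 1 in 823, to Smc3-deleted Flt3-ITD replicate 2 in 155 and to Smc3-deleted Flt3-ITD replicate 1 in 144. The missing call was thus mostly one of the single genotype, whose lists were the shorter ones; the part of list length in this was not tested. On the other side lay 1424 regions with all 4 calls under Flt3-ITD and 1 more from the rest. The extra call came from control replicate 1 in 746 of them, from control replicate 2 in 288, from Smc3 del/+ replicate 2 in 226 and from Smc3 del/+ replicate 1 in 164. These extra peaks were low in their own lists, with median score percentiles of 19.2, 17.3, 17.0 and 15.6 in the same order. The number of regions therefore rested on 3 libraries in particular: it was 1716 without control replicate 1, 1780 without Flt3-ITD replicate 1 and 2165 without Flt3-ITD replicate 2. Leaving out any of the other 5 libraries gave 1106 to 1262.

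**Figure D1:**
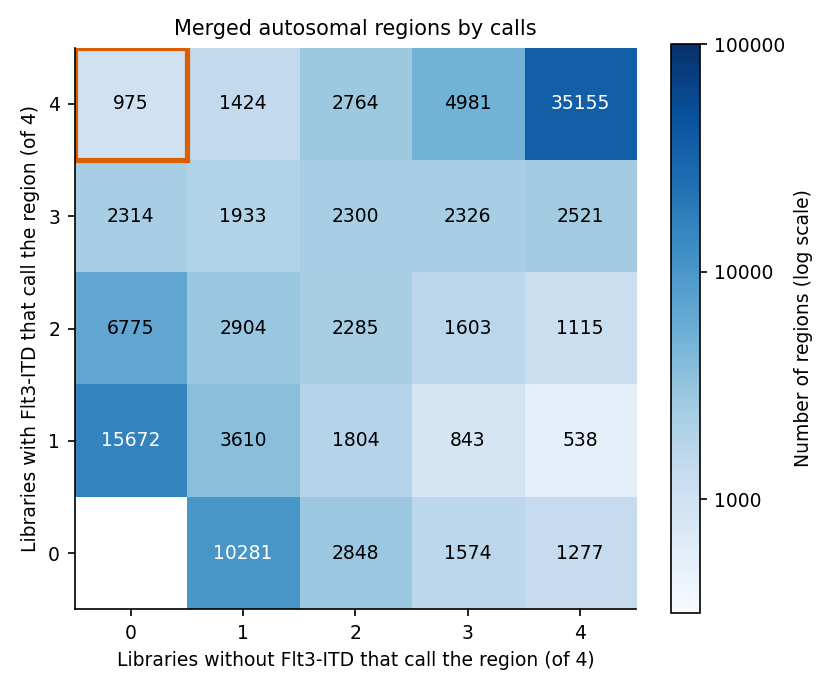
Number of merged autosomal regions by how many of the 4 libraries with Flt3-ITD (vertical axis) and of the 4 without (horizontal axis) called them, with colour on a log scale. The boxed cell holds the 975 Flt3-ITD-only regions, beside 1424 with 1 further call and above 2314 that lacked 1.

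Within the regions, the 4 libraries mostly placed 1 peak each. Merging joined only peaks that overlap and the rule asked for a peak of all 4. Overlap within a region was therefore in large part fixed by the rule. Of the 975 regions, 886 held exactly 4 peaks and 89 held more, up to 8. Merged width had a median of 1038 bp (quartiles 811.5 and 1227.5, range 337 to 2513 bp), against 906 bp for all autosomal regions, 1156 bp for regions called in all 8 libraries and 1142 bp for the reverse set. The width of a merged region depends on how many peaks were joined. All autosomal regions include many called in 1 library, so the 906 bp is not like for like. In 725 regions (74.4%) at least 1 base was covered by a peak of all 4 libraries, with a median of 260 bp so covered (quartiles 143 and 331 bp), and in 576 this common stretch reached 100 bp. In the other 250 regions the peaks only chained, so that no base was shared by all 4.

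Within what the merging allows, agreement on position was about equal for replicates and for the different genotypes. Peaks of Flt3-ITD replicates 1 and 2 overlapped in 94.9% of the 975 regions and those of Smc3-deleted Flt3-ITD replicates 1 and 2 in 92.6%. The 4 pairs across the genotypes overlapped in 92.4% to 94.4%. Centres of the peaks lay a median of 139.5 bp apart between the Flt3-ITD replicates, 110.5 bp between the Smc3-deleted Flt3-ITD replicates and 133 to 144 bp across genotypes. For regions called in all 8 libraries the same offsets were smaller, 94.5 bp, 64 bp and 83 to 86.5 bp. The extent of overlap in those regions was similar, at 91.9% to 92.9% of regions for the 6 pairs.

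The authors' score of a peak was used to place it within its own list, as a percentile from 0 to 100. The score lies between 0.99 and 1, ties are common, and no label or header says what it measures. In Flt3-ITD replicate 1, peaks of the Flt3-ITD-only regions had a median percentile of 22.8 (quartiles 12.2 and 35.8), and in replicate 2 of 21.3 (11.6 and 32.4). In Smc3-deleted Flt3-ITD replicate 1 the median was 47.9 (31.8 and 62.0), and in replicate 2 it was 48.6 (30.2 and 62.2). The regions thus stood in the lower part of the single genotype's lists and near the middle of the combined genotype's lists. The reverse set, in its own libraries, had medians of 48.8 and 28.2 in control and 47.7 and 51.4 in Smc3 del/+, so a place near the middle was not particular to the Flt3-ITD-only regions. The lists differ in length, and percentiles from lists of different lengths do not measure a change, so no difference between the genotypes was tested.

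Compared within each list, the regions stood well below those called everywhere. Peaks in regions called in all 8 libraries had median percentiles of 84.0 and 84.1 in the Flt3-ITD replicates and 82.7 and 82.5 in the Smc3-deleted Flt3-ITD replicates, which are the values of a score of exactly 1. A score of exactly 1 was held by 0.821% and 0.718% of the best peaks of Flt3-ITD-only regions in Flt3-ITD replicates 1 and 2, where it was held by 32.2% and 32.0% of all autosomal peaks. In Smc3-deleted Flt3-ITD replicates 1 and 2 it was held by 17.7% and 19.3%, against 34.9% and 35.1% of all autosomal peaks. Regions called in a single genotype stood lower in its lists than the Flt3-ITD-only regions did. The 4975 regions called only in Smc3-deleted Flt3-ITD had median percentiles of 24.7 and 25.6 there, and the 363 called only in Flt3-ITD had 18.3 and 15.8 there.

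The regions 1 call away from the rule lay on both sides of it in the Flt3-ITD lists. With 1 extra call outside Flt3-ITD, median percentiles were 28.8 and 24.8 in Flt3-ITD and 46.3 and 46.4 in Smc3-deleted Flt3-ITD. With 1 call missing, they were 16.2 and 14.6 in Flt3-ITD and 34.2 and 34.7 in Smc3-deleted Flt3-ITD. Of the 975 regions, 16 lay above the midpoint of all 4 lists and 412 at or below it in all 4. Another 301 lay above the midpoint of both Smc3-deleted Flt3-ITD lists and of neither Flt3-ITD list, and 3 did the reverse. These counts were not made for other sets, and across lists of different lengths they do not measure a change. Taken list by list, 6.77% and 4.10% lay above the midpoint in Flt3-ITD and 45.9% and 47.4% in Smc3-deleted Flt3-ITD. With 1 extra call outside Flt3-ITD the shares were 11.2% and 8.29%, then 42.8% and 44.7%.

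**Figure D2:**
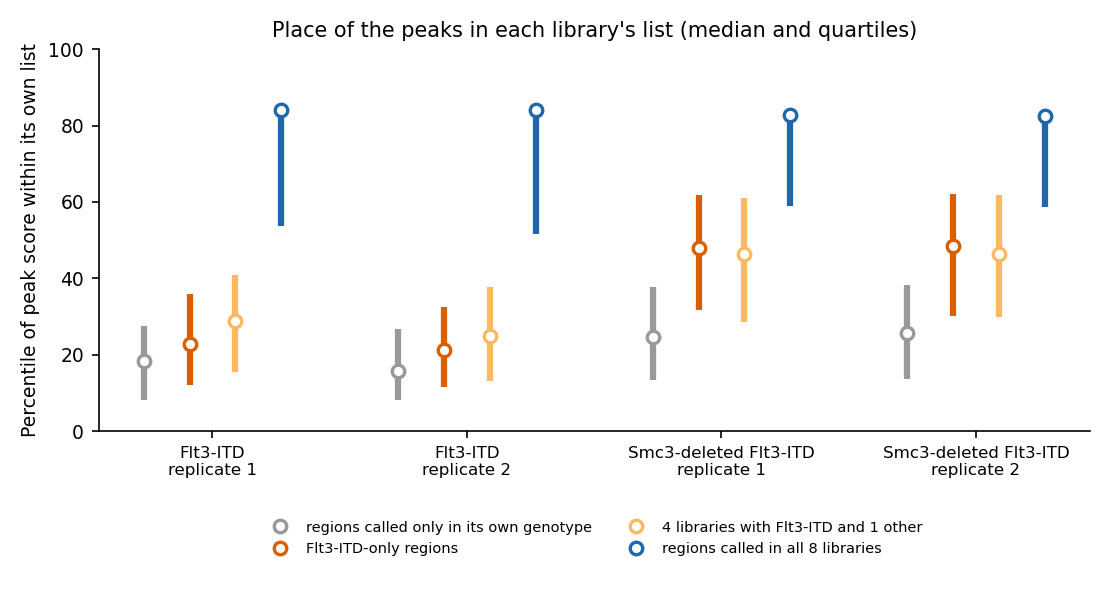
Percentile of the best peak of a region within its own library's list, for 4 kinds of region in the 4 libraries with Flt3-ITD; circles are medians and bars run from the lower to the upper quartile over regions. Flt3-ITD-only regions had medians of 22.8 and 21.3 in the Flt3-ITD lists and 47.9 and 48.6 in the Smc3-deleted Flt3-ITD lists, below the regions called in all 8 libraries in each list.

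Which of the regions ranked high was shared between replicates of the combined genotype more than between those of the single genotype. Across the 975 regions, Spearman's rho of the percentiles was 0.76 between the Smc3-deleted Flt3-ITD replicates and 0.31 between the Flt3-ITD replicates. Across the genotypes it was 0.28 to 0.30. In regions called in all 8 libraries the corresponding values were 0.83, 0.86 and 0.71 to 0.72 (n = 35155 regions). In the 1424 regions with 1 extra call outside Flt3-ITD they were 0.76, 0.35 and 0.29 to 0.34. The order was thus not particular to the Flt3-ITD-only regions, since these 1424 regions showed it too. Regions called in all 8 libraries did not show it. These correlations run over regions of the same libraries, in which many peaks tie, and regions are not independent replicates.

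The median width of peaks in the Flt3-ITD-only regions was 454 bp in Flt3-ITD replicate 1, 440 bp in Flt3-ITD replicate 2, 409 bp in Smc3-deleted Flt3-ITD replicate 1 and 410 bp in Smc3-deleted Flt3-ITD replicate 2. The medians of both Flt3-ITD libraries lay above those of both Smc3-deleted Flt3-ITD libraries. The difference of means was -37.5 bp (409.5 ± 0.707 minus 447 ± 9.90 bp, SD, n = 2 each; exact two-sided permutation p = 0.333, the smallest that 2 libraries against 2 can give, so the test could not pass). The same difference was -17.5 bp over all autosomal peaks and -20.5 bp over peaks in regions called in all 8 libraries.

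The distributions were long to the right, and their upper quartiles set the libraries apart more than their medians did. In the Flt3-ITD-only regions the upper quartile was 865.5 and 808.5 bp in Flt3-ITD replicates 1 and 2, and 632.5 and 652 bp in Smc3-deleted Flt3-ITD replicates 1 and 2. Peaks over 600 bp made up 37.9% and 34.8% of the peaks in these regions in Flt3-ITD, against 29.3% and 29.4% of all autosomal peaks there. In Smc3-deleted Flt3-ITD they made up 25.6% and 26.3%, against 22.4% and 23.2% of all autosomal peaks. The reverse set showed the same order in its own libraries: 30.0% and 35.2% in control against 23.3% and 24.0% of all autosomal peaks, and 42.5% and 39.5% in Smc3 del/+ against 32.6% and 31.9%.

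**Figure D3:**
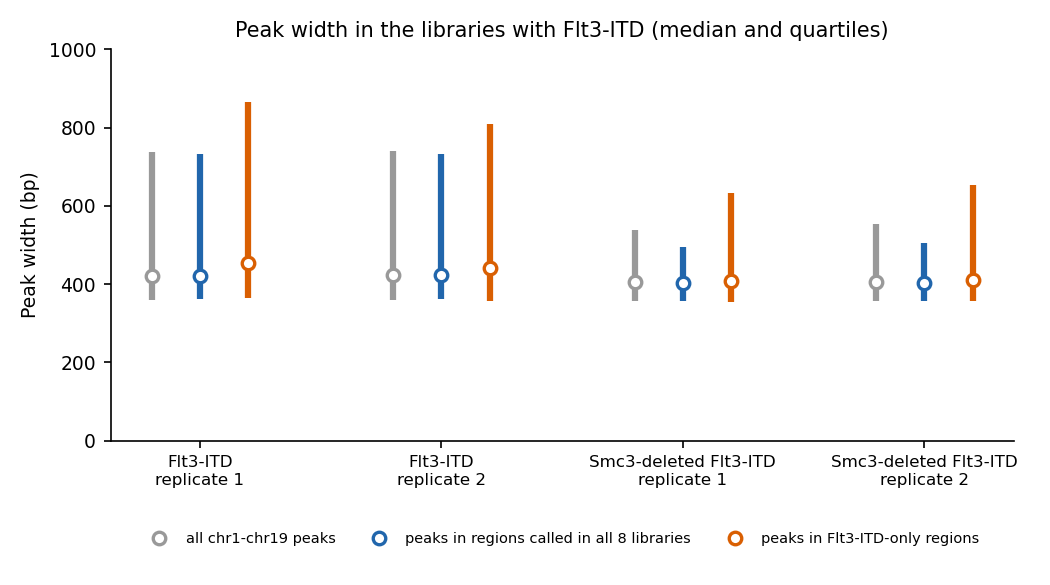
Peak width in bp in the 4 libraries with Flt3-ITD for all autosomal peaks, peaks in regions called in all 8 libraries and peaks in Flt3-ITD-only regions; circles are medians and bars run from the lower to the upper quartile. Medians of peaks in Flt3-ITD-only regions were 454 and 440 bp in Flt3-ITD and 409 and 410 bp in Smc3-deleted Flt3-ITD.

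Of the 975 Flt3-ITD-only regions, 803 (82.4%) had no peak of a library without Flt3-ITD within 1 kb. The rule already barred such a peak inside the region, and no such share is given for all autosomal regions. A gap over 1 kb was common there too. The nearest region of any library lay a median of 1640 bp away over all autosomal regions and 2575 bp away for Flt3-ITD-only regions. Within 1 kb of the region's edge a peak was listed for 126 of the 975 regions (12.9%) in control replicate 1, 98 (10.1%) in control replicate 2, 98 (10.1%) in Smc3 del/+ replicate 1 and 99 (10.2%) in Smc3 del/+ replicate 2. The last 3 of these counts were nearly equal, and control replicate 1, the longest of these lists, had the most. At least 1 of the 4 had a peak within 1 kb of 172 regions (17.6%, exact Clopper-Pearson 95% interval 15.3% to 20.2%, for counting error only), and all 4 did at 54. The interval takes the regions as independent, which regions of the same libraries are not. At least 1 of the 4 had a peak within 5 kb of 507 regions (52.0%). At the other end, 205 regions (21.0%) lay more than 20 kb and 77 (7.90%) more than 50 kb from any peak of these 4 libraries.

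These distances were close to those around the reverse set and around the regions called only in Smc3-deleted Flt3-ITD. Of the reverse set, 15.9% had a peak of a library with Flt3-ITD within 1 kb and 55.2% within 5 kb. Of regions called only in Smc3-deleted Flt3-ITD, 18.1% had a peak of 1 of the other 6 libraries within 1 kb and 51.9% within 5 kb. Beyond 20 kb lay 14.1% of the reverse set, against the 21.0% of Flt3-ITD-only regions. Taken library by library, 75.8% to 83.2% of the reverse set had a peak within 20 kb, against 70.1% to 74.6% of Flt3-ITD-only regions. The lists searched for the reverse set were longer on average, and the part of list length in this was not tested.

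**Figure D4:**
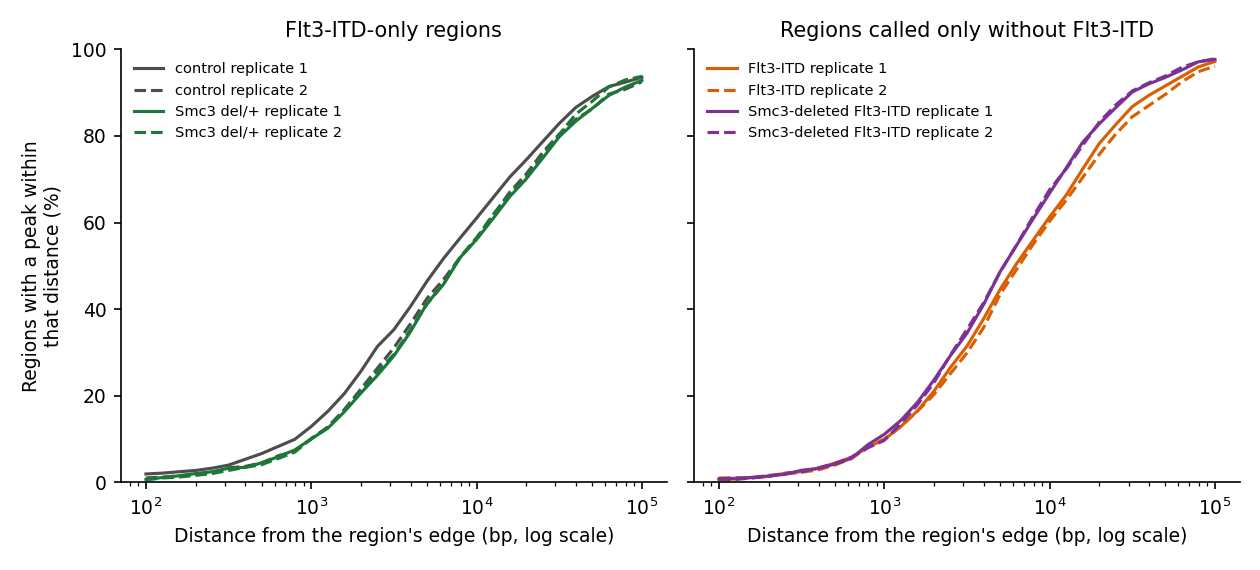
Share of regions (vertical axis, %) with a peak of a given library within the distance on the horizontal axis (bp, log scale), for Flt3-ITD-only regions against the 4 libraries without Flt3-ITD (left) and for the reverse set against the 4 with it (right). At 1 kb the left curves stand at 12.9% for control replicate 1 and at 10.1% to 10.2% for the other 3 libraries.

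The score percentiles were also set out by distance to the nearest peak of a library without Flt3-ITD, in 5 classes of 56, 116, 335, 263 and 205 regions, from within 250 bp to over 20 kb. In Smc3-deleted Flt3-ITD replicate 1 the medians of the classes were 41.1, 44.9, 46.5, 48.4 and 52.7, and in replicate 2 they were 47.5, 46.7, 47.9, 47.7 and 52.6. In Flt3-ITD replicate 1 they were 21.4, 22.0, 21.3, 23.0 and 25.0, and in replicate 2 they were 23.8, 19.01, 19.9, 21.8 and 23.6. Medians thus climbed from class to class in 1 library, while in Flt3-ITD replicate 2 the nearest class and the farthest had about the same value. A score of exactly 1 in all 4 libraries was found in 5 regions, and none of these 5 lay over 5 kb from a peak without Flt3-ITD; 2 lay within 250 bp, 2 between 250 bp and 1 kb, and 1 between 1 and 5 kb.

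Regions called everywhere were mostly not close by. The nearest region called in all 8 libraries lay a median of 13525 bp away, against 9802 bp for the reverse set, 14609 bp for regions called only in Smc3-deleted Flt3-ITD and 6361 bp between regions called in all 8. It lay within 5 kb of 30.7% of Flt3-ITD-only regions, and more than 100 kb from 124 of them. The 363 regions called only in Flt3-ITD lay closer to such a region, at a median of 2982 bp, with 58.7% within 5 kb.

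The calls of the next region along the chromosome leaned the same way as those of the region itself. The nearest neighbour of a Flt3-ITD-only region, a median of 2575 bp away, was called in more libraries with Flt3-ITD than without in 52.2% of cases and in fewer in 15.2%. Over all autosomal regions these shares were 38.2% and 23.0%, and for neighbours of the reverse set 24.4% and 44.1%. For regions called only in Smc3-deleted Flt3-ITD they were 51.6% and 16.1%, much the same as for the Flt3-ITD-only regions. For the 363 regions called only in Flt3-ITD they were 33.1% and 19.8%, both below the shares over all autosomal regions. The neighbour was itself a Flt3-ITD-only region for 35 of the 975 (3.59%) and a region of the reverse set for 6 (0.615%). Over all autosomal regions 0.830% and 1.07% of neighbours were of these kinds.

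All 19 autosomes held Flt3-ITD-only regions. Their share of a chromosome's regions ran from 0.650% on chromosome 11 (47 of 7230) and 0.658% on chromosome 7 (45 of 6834) to 1.10% on chromosome 5 (74 of 6735) and 1.15% on chromosome 1 (90 of 7830). Another Flt3-ITD-only region lay within 100 kb of 196 of the 975 (20.1%), with a median distance of 533538 bp to the nearest. The reverse set was more closely spaced, with 34.0% within 100 kb and a median of 252508 bp. It is also larger (1277 regions), and the part of set size in this was not tested.

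Stretches of 100 kb with at least 3 Flt3-ITD-only regions, joined where they overlapped, formed 12 groups that held 41 of the 975 regions (4.21%). The densest 100 kb stretch lay on chromosome 1. Between 122363796 and 122430139, over 66.3 kb, it held 9 regions, of which 5 were Flt3-ITD-only, and 0 of the 9 were called in any library without Flt3-ITD. For the 5 the absence was fixed by the rule, and the stretch was picked for holding the most Flt3-ITD-only regions. The other 4 were called in 1 to 3 libraries with Flt3-ITD. Over all autosomal regions, 14.3%, 6.17% and 2.11% were called in 1, 2 and 3 libraries with Flt3-ITD and in none without it. On both sides the pattern ended: a region 17.7 kb before the first was called in control replicate 1 and Smc3 del/+ replicate 1, and the next region after the last, 119.5 kb from the first, was called in Smc3 del/+ replicate 1.

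The 5 regions of this stretch differed in score percentile, and 0 of them followed the rule with the upper 50% of each list. With equal numbers of peaks the second did not follow it, and with merging at 50% of the shorter peak the last did not. The first, chr1:122363796-122364590, had percentiles of 43.0 and 59.8 in Flt3-ITD replicates 1 and 2 and a score of exactly 1 in both Smc3-deleted Flt3-ITD libraries. The second, chr1:122365375-122366150, had 1.75 and 27.8 in Flt3-ITD and 58.3 and 49.5 in Smc3-deleted Flt3-ITD, so that Flt3-ITD replicate 1 listed it near the bottom. At chr1:122394028-122395625 the percentiles were 45.7 and 16.0, then 35.1 and 31.2, and at chr1:122413857-122415136 they were 45.7 and 36.6, then 55.4 and 50.6. The last, chr1:122429047-122430139, had 37.7 and 32.5 in Flt3-ITD and again a score of exactly 1 in both Smc3-deleted Flt3-ITD libraries.

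**Figure D5:**
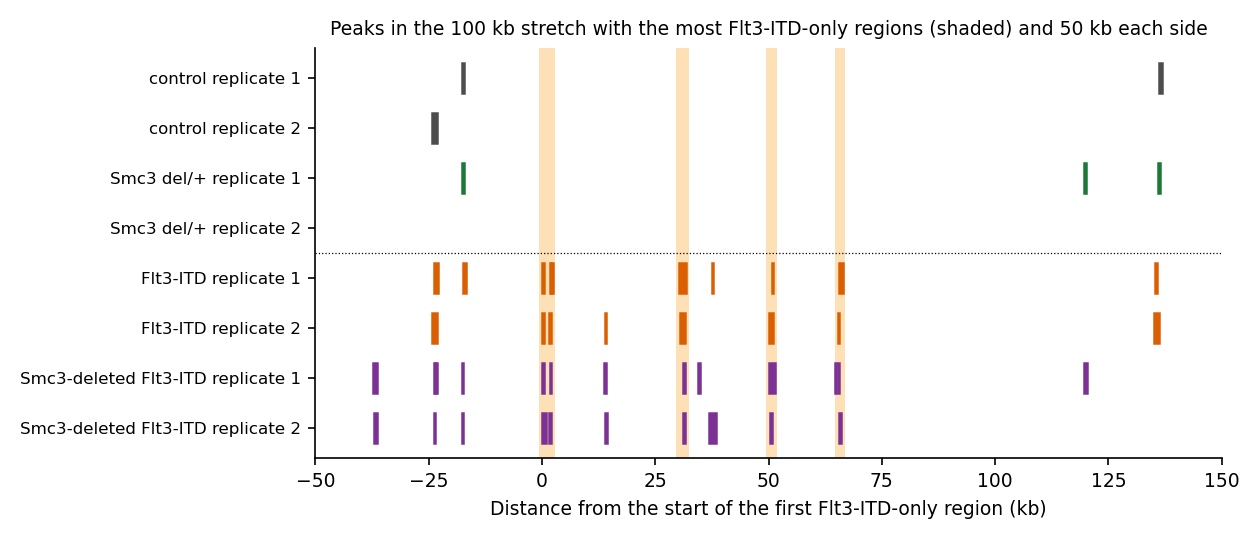
Peaks of each library as bars over the densest stretch, by distance in kb from the start of its first Flt3-ITD-only region, with 50 kb on each side; the 5 Flt3-ITD-only regions are shaded. Between 0 and 66.3 kb the 4 libraries without Flt3-ITD list no peak. In the shaded regions that absence, and the peaks of the 4 libraries with Flt3-ITD, follow from the rule.

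The largest of the 12 groups lay on chromosome 2. From 169525472 to 169754577, over 229 kb, it held 14 regions, of which 6 were Flt3-ITD-only. Of the 14, 13 were called in no library without Flt3-ITD, which the rule fixed for the 6. On chromosome 12, all 4 regions from 96692115 to 96706075 were called in no library without Flt3-ITD. The rule fixed this for 3 of them, which were Flt3-ITD-only. On chromosome 19, all 3 regions from 37221103 to 37248003 were Flt3-ITD-only. Other groups lay among regions that the remaining libraries shared. On chromosome 16, from 44960969 to 45039086, 3 of 21 regions were Flt3-ITD-only, 11 were called in a library without Flt3-ITD and 5 were called in all 8.

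The 10 regions with the highest mean percentile over the 4 libraries fell into 2 kinds. Those ranked 1 to 6 and 8 lay within 1.3 kb of a peak of a library without Flt3-ITD. The highest ranked was chr3:127495805-127496365, where all 4 libraries had a score of exactly 1 and peaks of 549 and 484 bp in Flt3-ITD and 382 and 435 bp in Smc3-deleted Flt3-ITD. Its nearest peaks elsewhere lay 1255 and 1296 bp away in control and 1366 and 1295 bp away in Smc3 del/+. The next, chr2:25050154-25050588, had peaks of 397, 400, 409 and 419 bp in the same order of libraries, and a Smc3 del/+ peak 627 bp away. At chr11:4749796-4750132 all 4 libraries without Flt3-ITD had a peak 101 to 113 bp away. The region there is 337 bp wide, the narrowest of the 975.

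The other 3 of the 10 were far from any such peak. The region chr17:59437615-59438165 had peaks of 551 and 403 bp at percentiles of 65.6 and 66.5 in Flt3-ITD, and of 377 and 395 bp with a score of exactly 1 in Smc3-deleted Flt3-ITD. Its nearest peak without Flt3-ITD lay 60.7 kb away, in Smc3 del/+ replicate 2. The region chr12:109199844-109200975 had peaks of 1132 and 390 bp at 63.4 and 64.7 in Flt3-ITD, and of 1011 and 1061 bp with a score of exactly 1 in Smc3-deleted Flt3-ITD, with the nearest other peak 35.9 kb away. The region chr2:169753749-169754577, the last of the group on chromosome 2, had percentiles of 67.5 and 84.1 in Flt3-ITD and 64.9 and 64.6 in Smc3-deleted Flt3-ITD. Its nearest other peak lay 100.1 kb away, but its 4 peaks shared no common base. Ranked next among regions over 5 kb from such peaks were chr3:105195976-105196401, 134.9 kb from the nearest, with 51.3 and 62.3 in Flt3-ITD, and chr12:120608104-120609350, 11.5 kb from the nearest, with 59.3 and 50.2 in Flt3-ITD. Both had a score of exactly 1 in both Smc3-deleted Flt3-ITD libraries.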

How the data were processed

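ATAC-seq peak lists of 8 libraries were used, 1 per library. The build (mm9) and the aligner (Bowtie, no version) are named per the submitters' processing notes; the peak caller, duplicate handling and transposase offset were steps not given in the sources used here. Each score of a peak is the authors' own deposited value, and below 1 the lists hold 2688 to 3409 distinct scores each, nearly all shared by several peaks. Read depth is unknown. Starts were read as BED and printed from 1. Chromosome 1 peaks reach 197090546, past the last gene (195291439) of the GRCm38 gene table, so that table was not used.

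Peaks were merged at 1 bp. Where a library had several peaks in a region, the highest by score, then width, gave its percentile, its centre and the width printed for a named region. Median widths, shares over 600 bp and overlaps used all peaks. The members, lists and rules were chosen with earlier results of these data known. Named regions were the 10 with the highest mean score percentile (ties by width), the 5 highest over 5 kb from other libraries' peaks, and those of the densest 100 kb stretch; regions of the other groups with at least 3 members were added after their values were seen. Planned gene lists, start sites, base content and motifs need mm9 and were not analysed here. A planned test of percentiles was not run, since lists differ in length. Peak widths were tested by exact permutation. Merging was checked on simulated lists. The scripts ran on Python 3.11.15 with pandas 2.3.3 for the tables, scipy 1.17.1 for the test, numpy 2.4.6 and, for plots, matplotlib 3.10.9.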

Additional observations from a re-analysis of the deposited data

How the results depend on the processing

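The number of Flt3-ITD-only regions was 953 with merging at 50% of the shorter peak (815 of the 975 overlapped them), 803 with no other peak within 1 kb and 880 with equal numbers of peaks per library, but only 612 of the 975 overlapped those 880. With the upper 50% of each list it was 480, and 16 of the 975 overlapped them, so which regions follow the rule depends on how many peaks enter. Without merging, 3211 stretches of bases (median 47 bp) followed the rule, and 725 of the 975 regions held one. Leaving out 1 library gave 1106 to 2165 regions, since the rule then asks for fewer calls; with groups exchanged as in the descriptions it gave 141. The share with a peak of the other libraries within 1 kb was 14.3% with equal numbers of peaks, 14.0% with the upper 50%, 20.6% with exchanged groups, 52.0% at 5 kb and 16.8% to 21.2% without 1 library. Among the 725 regions whose 4 peaks share a base, an alternative chosen after seeing the data, the width difference was -50.25 bp. That difference kept its sign under all 14 alternatives run, from -55.1 bp (means) to -34.0 bp. All 14 reuse these libraries, whose medians over all autosomal peaks also differed, by -17.5 bp. A constant sign therefore adds no support for a difference in these regions. The replicate block is 1 of the 14 and changes only the p-value. Same-numbered libraries share only a number; with it as a replicate block the difference was -37.5 bp (exact p = 0.5, the smallest that 2 pairs allow). Of 17 regions chosen by the fixed rule, 16 were found with equal numbers of peaks, 15 with merging at 50% and 11 with the upper 50%; the 6 not found there include all 5 of the densest stretch. Alternatives that need mm9 were not run.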

Other observations

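The sex chromosomes were outside the rule. On X, the pattern of the Flt3-ITD-only regions was held by 33 of 4239 regions and its reverse by 31. On Y, 0 of 472 regions followed the first pattern and 2 the reverse.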
